A study of Mus musculus with 2 samples.

Results

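Expression was followed for 7 genes that mark B cells of the germinal centre, Bcl6, Mef2b, Mybl1, S1pr2, Rgs13, Gcsam and Nuggc, chosen by name, with earlier results of these data known, out of 30905 genes in the deposited gene list. Their raw UMIs (unique molecular identifiers, 1 per captured RNA molecule) were read in leukocytes of mice given a fasting-mimicking diet (FMD), a restricted diet meant to imitate fasting, and of mice fed ad libitum. Both groups were male C57BL/6 mice that received azoxymethane (AOM), a colon carcinogen, at 12 mg/kg and then repeated cycles of 7 days on 2.5% dextran sodium sulfate (DSS), a polymer that damages the gut lining, followed by 14 days on plain water. The diets differed from the second cycle on. Each diet is represented by 1 library of CD45+ cells sorted from the tissue of 4 pooled mice, labelled colorectal cancer tissue, while the extraction text also speaks of normal colon. The assay was droplet single-cell RNA-seq of 3′ ends (10x Genomics, V3 chemistry). UMIs of Ptprc, which encodes CD45, were seen in 82.9% of FMD and 81.0% of ad libitum barcodes, and UMIs of the epithelial gene Epcam in 2.47% of FMD and 3.02% of ad libitum barcodes.

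The germinal centre is the site in a lymphoid follicle where B cells that have met antigen divide, mutate their antibody genes and compete for help from follicular helper T cells. Its cells pass between a dark zone of dividing, mutating cells and a light zone of cells that are tested for antigen binding, and leave as memory or plasma cells. Gut-associated follicles hold germinal centres that feed the IgA response. Of the 7 genes, Bcl6, Mef2b and Mybl1 encode transcription factors, S1pr2, Rgs13 and Gcsam act in the signalling that governs where the cells sit and how they move, and Nuggc encodes a nuclear GTPase.

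The FMD library held 5877 barcodes with 35280790 UMIs and the ad libitum library 6089 barcodes with 35712762 UMIs, and 7 barcodes occurred in both. After filters, 4585 FMD and 4845 ad libitum cells were kept, with a median of 5730 UMIs per cell in FMD and 5499 in ad libitum. Cell classes were rebuilt by clustering without the 7 genes, so a class is called "-like" and its name rests on other markers. With 1 library a diet, the spread between mice is unknown, no test between diets was possible, and intervals and floors in brackets (95%) cover counting error only. Levels are UMIs of a gene per 1000000 UMIs (CPM) of the class, leaving out immunoglobulin and mitochondrial genes from the denominator, and each ratio is the log2 of the FMD level over the ad libitum level. Levels were compared between cells and libraries but not between genes.

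The germinal centre B-like class held 73 of 4585 FMD cells, 1.59% [1.25, 2.00], and 50 of 4845 ad libitum cells, 1.03% [0.767, 1.36], a log2 ratio of shares of 0.63 [0.09, 1.17]. Its cells were deep, with medians of 15607 UMIs in FMD and 13613 UMIs in ad libitum. Cd79a, a part of the B cell receptor, had UMIs in 73 of 73 FMD and 49 of 50 ad libitum cells of the class. Cd3e, a part of the T cell receptor complex, had UMIs in 2 FMD and 2 ad libitum cells. Cd79a is in the B cell panel that limits the class, and Cd3e in the T panel used to remove doublets. These counts were thus largely set by the filters and are no separate check of the class. The cluster also held cells without the B cell panel, 6 in FMD and 19 in ad libitum, which were left out after the cluster had been seen. With them the class held 79 FMD and 69 ad libitum cells, and the log2 ratio of shares was 0.27 [−0.21, 0.76]. When the 29 genes that define the cluster were left out of clustering, the class held 76 FMD and 49 ad libitum cells, a log2 ratio of 0.71 [0.18, 1.26].

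In that class 6 of the 7 genes were at their highest level of any class in both libraries. The exception, Bcl6, stood first in FMD and just after follicular helper T-like cells in ad libitum, with overlapping intervals between these classes in both. The cells made up 1.59% of FMD and 1.03% of ad libitum cells, yet held 62.9% of all kept UMIs of the 7 genes in FMD and 43.2% in ad libitum. Rgs13 was the most restricted, with 95.1% of its kept UMIs in this class in FMD and 96.8% in ad libitum. Bcl6 was the least restricted, with 14.4% of its kept UMIs in this class in FMD and 8.19% in ad libitum.

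**Figure D1:**
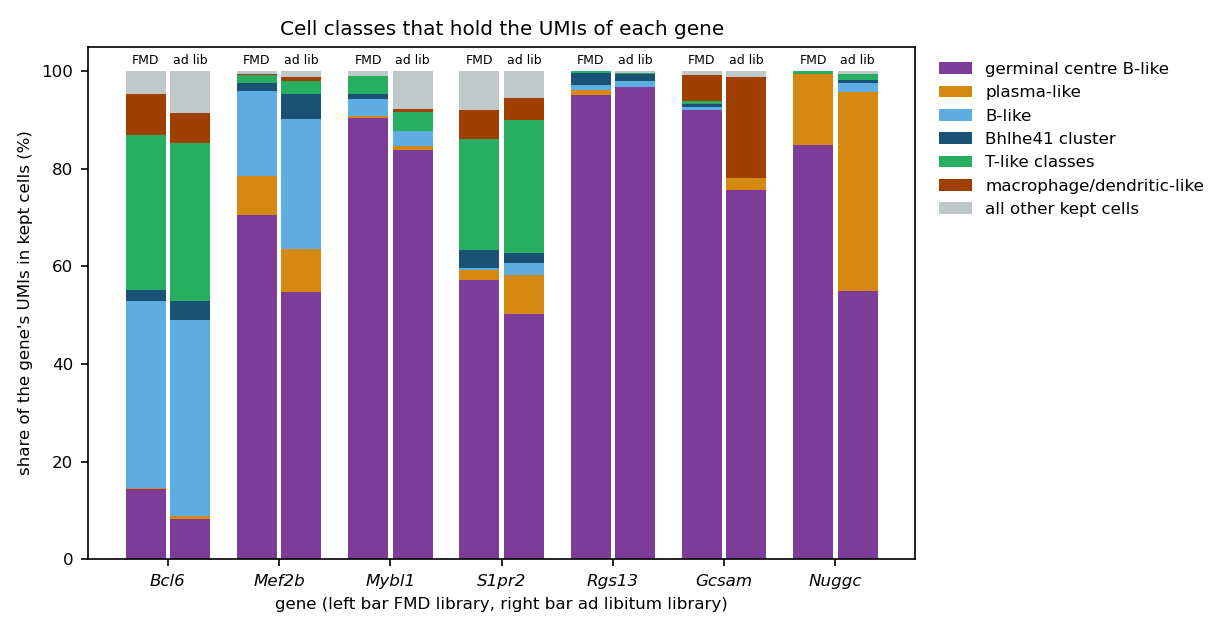
Share of each gene's kept UMIs (%) by cell class, with an FMD and an ad libitum bar for each gene. Rgs13 came almost wholly from germinal centre B-like cells in both libraries (95.1% in FMD and 96.8% in ad libitum), while Bcl6 was spread over B-like and T-like classes.

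Bcl6 encodes a transcriptional repressor that germinal centre B cells and follicular helper T cells both need. The gene lies on the minus strand of chromosome 16 (23965052 to 23988852, GRCm38, GENCODE vM21, protein coding). In germinal centre B-like cells it had 148 UMIs in FMD, 122 CPM [103, 144], and 83 UMIs in ad libitum, 111 CPM [88.6, 138], a log2 ratio of 0.14 [−0.26, 0.54]. UMIs were seen in 49 of 73 FMD and 33 of 50 ad libitum cells. In follicular helper T-like cells it had 141 UMIs in 191 FMD cells, 108.0 CPM [90.9, 127], and 131 UMIs in 173 ad libitum cells, 114 CPM [94.97, 135], a log2 ratio of −0.07 [−0.43, 0.28]. The level in germinal centre B-like over follicular helper T-like cells was 1.13-fold [0.894, 1.44] in FMD and 0.979-fold [0.734, 1.30] in ad libitum, so their order could not be told at this depth.

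B-like cells, 2583 in FMD and 2840 in ad libitum, held Bcl6 at a lower level, with 394 UMIs in FMD, 30.1 CPM, and 408 UMIs in ad libitum, 29.4 CPM, a log2 ratio of 0.04 [−0.17, 0.24]. Germinal centre B-like over B-like cells came to 4.06-fold [3.34, 4.92] in FMD and 3.79-fold [2.95, 4.81] in ad libitum. Plasma-like cells held almost none, with 2 UMIs in 31 FMD cells and 6 UMIs in 90 ad libitum cells. Because B-like cells were so many, they held more Bcl6 UMIs in sum than the germinal centre B-like cells did in either library.

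Among the other lymphocyte classes, Bcl6 stood at 24.3 CPM in FMD and 24.6 CPM in ad libitum helper or naive T-like cells, and at 26.3 CPM in FMD and 25.9 CPM in ad libitum CD8 T-like cells. Regulatory T-like cells, marked by Foxp3, had 71 UMIs in FMD, 32.2 CPM, and 75 UMIs in ad libitum, 48.5 CPM, a log2 ratio of −0.59 [−1.08, −0.10]. At a finer clustering (Leiden resolution 2) most cells of that class fell into a cluster led by Il10, with 188 FMD and 82 ad libitum cells, and one led by Penk, with 106 FMD and 131 ad libitum cells, so its make-up differed between the libraries and the part of that in the class values was not tested. Natural killer-like cells had 22 UMIs in FMD, 23.3 CPM, and 61 UMIs in ad libitum, 55.3 CPM, a log2 ratio of −1.25 [−2.02, −0.52]. In that class Cd3e was seen in 76 of 135 FMD and 114 of 152 ad libitum cells, and the part of this difference in the Bcl6 value was not tested. Regulatory T-like and natural killer-like cells were thus the classes with intervals below 0, while the follicular helper, helper or naive and CD8 T-like classes had intervals that held 0. The share of all genes with an interval off 0 was not counted in regulatory T-like or natural killer-like cells. Macrophage or dendritic-like cells also held Bcl6, at 40.1 CPM in FMD and 45.2 CPM in ad libitum.

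RefSeq (GRCm38.p6) lists an upstream and a downstream start for Bcl6, and the 250 bases before each are shown because the Bcl6 protein is known from human B cells to bind its own promoter. The promoters of the members that matched the RefSeq table by symbol, 5 of 7, were searched for 3 short motifs on both strands. They were TTCNNNGAA (the core shared by STAT factors and BCL6), CTANNNNTAG (MEF2) and ATGCAAAT (the octamer bound by OCT factors of B cells). Of 32851 promoters of the same length, 7.02% hold the first, 3.2% the next and 1.6% the last. Capitals mark matches to the TTCNNNGAA core, 1 before the upstream start and 3 before the downstream start. A match is a string of letters and not a measured binding site.
Bcl6, upstream start, chr16:23988853-23989102, minus strand: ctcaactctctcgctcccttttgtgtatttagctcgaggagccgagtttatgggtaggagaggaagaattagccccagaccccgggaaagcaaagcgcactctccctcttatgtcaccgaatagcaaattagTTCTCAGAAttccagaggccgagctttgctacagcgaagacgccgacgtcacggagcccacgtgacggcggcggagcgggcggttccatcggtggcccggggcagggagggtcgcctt
Bcl6, downstream start, chr16:23981284-23981533, minus strand: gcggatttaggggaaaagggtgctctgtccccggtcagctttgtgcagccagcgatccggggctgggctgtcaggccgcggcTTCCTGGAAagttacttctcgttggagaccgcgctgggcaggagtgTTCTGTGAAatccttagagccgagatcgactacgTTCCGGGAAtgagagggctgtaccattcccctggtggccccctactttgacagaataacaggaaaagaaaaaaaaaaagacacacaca

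Mef2b encodes a MADS-box transcription factor that activates BCL6 in human germinal centre B cells. It lies on the plus strand of chromosome 8 (70139711 to 70167488). The germinal centre B-like class held 346 UMIs in FMD, 286 CPM [257, 318], and 202 UMIs in ad libitum, 271 CPM [235, 311], a log2 ratio of 0.08 [−0.17, 0.34]. UMIs were seen in 67 of 73 FMD and 45 of 50 ad libitum cells. Per cell, the median was 2.66 UMIs per 10000 UMIs of the cell (outside immunoglobulin and mitochondrial genes) in FMD, with a highest value of 13.9, and 2.33 in ad libitum, with a highest value of 12.3. The ratio interval held 0. The level was 44.0-fold [34.7, 56.5] higher than in B-like cells in FMD and 38.4-fold [30, 49.4] higher in ad libitum.

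Plasma-like cells were next in order for Mef2b, and there the libraries stood apart. They held 40 UMIs in 31 FMD cells, 79.6 CPM [56.9, 108.4], and 33 UMIs in 90 ad libitum cells, 26.2 CPM [18.0, 36.8], a log2 ratio of 1.6 [0.90, 2.31]. The UMIs came from 14 FMD cells, of which 1 held 27.5% of them, and from 19 ad libitum cells. Of the 3 members with at least 20 UMIs in this class, 1 (Mef2b) had an interval above 0 and 0 had one below 0, against 6.3% and 4.68% of all 6841 genes measured there. Over the 12 measured genes of a proliferation list in these plasma-like cells, 6 had an interval above 0 (Top2a, Stmn1, Pcna, Mcm5, Mcm6 and Rrm2) and 1 below 0. Apoe, a gene of the macrophage and dendritic list, was also at 2807 CPM in FMD and 209 CPM in ad libitum plasma-like cells, while Lyz2, Csf1r and C1qa, genes of the panel used to remove doublets, were at 0 in FMD. Their part in the Mef2b value was not tested.

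The 250 bases before the RefSeq start of Mef2b are shown because it is the only one of the matched promoters that holds an octamer, in capitals. The gene model overlaps Borcs8 on the same strand, whose 3′ end lies 20169 bases away. How reads of joint transcripts were assigned is not given in the sources used here.
Mef2b, chr8:70152511-70152760, plus strand: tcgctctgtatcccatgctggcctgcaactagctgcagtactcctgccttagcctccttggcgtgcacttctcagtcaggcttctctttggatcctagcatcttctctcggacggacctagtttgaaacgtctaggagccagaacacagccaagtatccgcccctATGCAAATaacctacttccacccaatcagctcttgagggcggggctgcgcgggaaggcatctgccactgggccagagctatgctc

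Mybl1 encodes A-MYB, a transcription factor of dividing germinal centre B cells. It lies on the minus strand of chromosome 1 (9667415 to 9700209). In germinal centre B-like cells it had 179 UMIs in FMD, 148 CPM [127, 171], and 110 UMIs in ad libitum, 147 CPM [121, 178], a log2 ratio of 0.01 [−0.34, 0.36]. The levels of the libraries could not be told apart at this depth. B-like cells held 7 UMIs in FMD and 4 in ad libitum, and the T-like classes together 7 in FMD and 5 in ad libitum. The cells of the germinal centre cluster without the B panel held 0 in FMD and 6 in ad libitum. Of kept Mybl1 UMIs, 90.4% in FMD and 84.0% in ad libitum lay in the germinal centre B-like class.

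S1pr2 encodes a receptor for sphingosine 1-phosphate that holds B cells inside the follicle by signalling through the G protein subunit Gna13. It lies on the minus strand of chromosome 9 (20962361 to 20976781). Counts in germinal centre B-like cells were 136 UMIs in FMD, 112 CPM [94.3, 133], and 100 UMIs in ad libitum, 134 CPM [109, 163], a log2 ratio of −0.25 [−0.64, 0.13]. It was the only one of the 7 genes whose ratio in this class was below 0, and the interval held 0. B-like cells held 1 UMI in FMD and 5 in ad libitum.

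S1pr2 was also spread at low levels over many other classes, and 57.1% of its kept UMIs in FMD and 50.3% in ad libitum lay in the germinal centre B-like class. Regulatory T-like cells held 30 UMIs in 24 FMD cells, 13.6 CPM, and 9 UMIs in 9 ad libitum cells, 5.82 CPM, a log2 ratio of 1.22 [0.11, 2.48], in the class whose Il10-led and Penk-led cells were in unequal proportion in the libraries. Helper or naive T-like cells held 12 UMIs in FMD, 3.04 CPM, and 24 in ad libitum, 6.08 CPM, a log2 ratio of −1.0 [−2.14, 0.05]. Over all T-like classes the counts were 54 UMIs in FMD and 54 in ad libitum, 6.41 CPM in FMD and 6.66 CPM in ad libitum, a log2 ratio of −0.05 [−0.63, 0.52]. Follicular helper T-like cells held 8 UMIs in FMD and 11 in ad libitum.

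Rgs13 encodes a protein that speeds the shut-off of G protein signalling downstream of chemokine receptors. It lies on the minus strand of chromosome 1 (144138654 to 144177372). Of the 7 genes it showed the largest difference between the libraries in germinal centre B-like cells. There it had 975 UMIs in FMD, 806 CPM [756, 858], and 359 UMIs in ad libitum, 481 CPM [432, 533], a log2 ratio of 0.75 [0.57, 0.92] or 1.68-fold. UMIs were seen in 64 of 73 FMD and 39 of 50 ad libitum cells.

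Single cells of both libraries overlapped widely in Rgs13. Per 10000 UMIs of a cell, FMD cells had a median of 7.62 UMIs, quartiles of 4.60 and 10.1 and a highest value of 23.9. Ad libitum cells had a median of 4.56 UMIs, quartiles of 1.0 and 7.67 and a highest value of 17.0. No Rgs13 UMI was found in 9 FMD and 11 ad libitum cells. Of the 7475 genes with at least 20 UMIs in this class over both libraries, 4.79% had a higher ratio than Rgs13.

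Mki67, a gene of dividing cells, was seen in more of the FMD cells of the class, with UMIs in 59 of 73 FMD cells (80.8%) and 31 of 50 ad libitum cells (62.0%). The cells were also split at the median of their summed proliferation genes, with 25 of 123 cells near that value. Among the cells above it, Rgs13 stood at 776 CPM in FMD and 492 CPM in ad libitum, and among those below it at 875 CPM in FMD and 473 CPM in ad libitum. The part of proliferation in the Rgs13 value was not tested. When each cell was thinned to 1000 UMIs, Rgs13 was seen in 42.5% [31.0, 54.6] of FMD and 28.0% [16.2, 42.5] of ad libitum cells of the class, and the log2 ratio of the thinned sums was 0.48 [−0.27, 1.27]. The other alternatives kept the ratio between 0.65 and 0.91 with the interval above 0.

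Outside this class Rgs13 was nearly absent. B-like cells held 11 UMIs in 2583 FMD cells and 5 UMIs in 2840 ad libitum cells, and the T-like classes together 4 UMIs in FMD and 1 in ad libitum. Follicular helper T-like cells held none in either library, so that the level in germinal centre B-like cells was at least 351-fold higher in FMD and at least 185-fold higher in ad libitum (against a floor of 3 counts per library). Plasma-like cells held 10 UMIs in 4 FMD cells, with 5 of them in 1 cell, and 0 in ad libitum. A B-lineage cluster led by Bhlhe41 and Apoe, left unnamed, held 25 UMIs in 4 FMD cells, 14 of them in 1 cell, and 5 UMIs in 2 ad libitum cells. With the cells thinned to 1000 UMIs, Rgs13 was seen in 0.0776% of FMD and 0% of ad libitum B-like cells, which allows up to 0.106% in ad libitum. In T-like cells, which should lack the gene, it was seen in 0.0867% of FMD and 0% of ad libitum cells, which allows up to 0.267% in ad libitum. The B-like value is thus not above that background.

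Rgs13 is shown with its promoter because it is the gene with the largest difference between the libraries. None of the 3 strings searched was in this window, and so it has no capitals.
Rgs13, chr1:144177373-144177622, minus strand: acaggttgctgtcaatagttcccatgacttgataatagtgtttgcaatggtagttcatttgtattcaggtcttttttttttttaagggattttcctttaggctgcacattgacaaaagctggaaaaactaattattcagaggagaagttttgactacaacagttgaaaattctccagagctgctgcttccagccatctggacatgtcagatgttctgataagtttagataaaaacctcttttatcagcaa

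**Figure D2:**
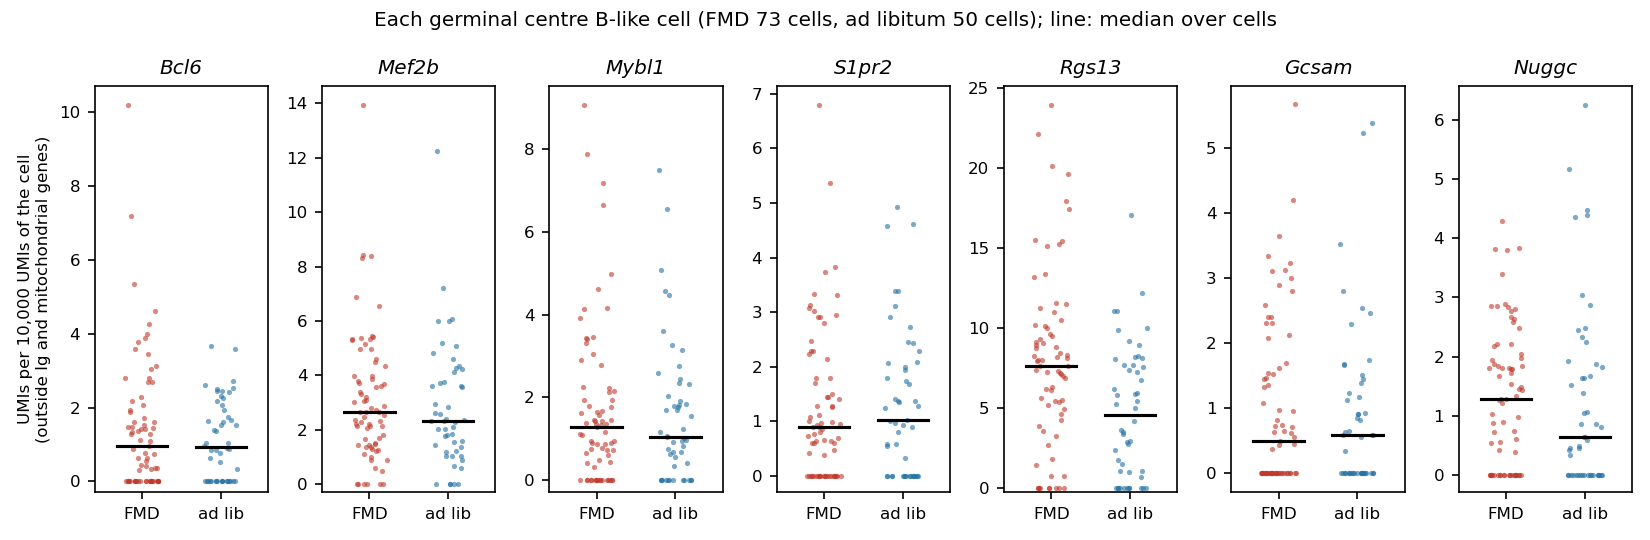
UMIs of each of the 7 genes per 10000 UMIs of the cell outside immunoglobulin and mitochondrial genes, 1 point for each germinal centre B-like cell (73 FMD, 50 ad libitum), with a line at the median over cells. The median for Rgs13 is 7.62 in FMD and 4.56 in ad libitum with wide overlap, that for Nuggc is 1.29 in FMD and 0.64 in ad libitum, and those of the other 5 genes differ by less than 0.5 between the libraries.

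Among the other genes, Bcl6 had a per-cell median of 0.95 UMIs per 10000 in FMD (highest 10.2) and 0.93 in ad libitum (highest 3.66). Mybl1 had a median of 1.27 in FMD (highest 9.07) and 1.04 in ad libitum (highest 7.49). S1pr2 had a median of 0.89 in FMD (highest 6.80) and 1.02 in ad libitum (highest 4.92). For these 3 genes the highest cell was an FMD cell, but FMD had more cells (73 against 50) and these values rest on few UMIs in shallow cells. They were 3 UMIs of Bcl6 and 2 of S1pr2 in 1 cell of 3079 UMIs, and 3 of Mybl1 in 1 cell of 3990 UMIs. The medians of the 3 genes differed by less than 0.5 between the libraries, and 12 to 24 cells of each library held none.

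Gcsam encodes an adaptor, known as HGAL in humans, that tunes receptor signalling and cell movement of germinal centre B cells. It lies on the plus strand of chromosome 16 (45610380 to 45622867). Its counts in germinal centre B-like cells were 138 UMIs in 40 FMD cells, 114 CPM [95.9, 135], and 62 UMIs in 28 ad libitum cells, 83.1 CPM [63.7, 107], a log2 ratio of 0.46 [0.02, 0.91]. The lower bound was close to 0, and the interval stayed above 0 in 5 of 12 alternatives. At 5000 UMIs per cell the ratio was 0.05, and at 1000 UMIs per cell it was −1.55, from UMIs in 2 FMD and 3 ad libitum cells. Per cell the median was 0.49 UMIs per 10000 in FMD and 0.58 in ad libitum, so the higher FMD sum was not seen in the median cell.

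Macrophage or dendritic-like cells were the next class for Gcsam, with 8 UMIs in 3 FMD cells, 3.65 CPM, and 17 UMIs in 7 ad libitum cells, 12.4 CPM. The log2 ratio was −1.76 [−3.18, −0.47], opposite in sign to that in germinal centre B-like cells, and 1 cell held 62.5% of the FMD UMIs. B-like cells held 1 UMI in FMD and 0 in ad libitum, and follicular helper T-like cells 0 in both.

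Nuggc encodes a nuclear GTPase, also called SLIP-GC, that is known to limit DNA damage in germinal centre B cells. It lies on the plus strand of chromosome 14 (65598546 to 65648531). The germinal centre B-like class held 179 UMIs in FMD, 148 CPM [127, 171], and 89 UMIs in ad libitum, 119 CPM [95.8, 147], a log2 ratio of 0.31 [−0.06, 0.70]. UMIs were seen in 51 of 73 FMD and 32 of 50 ad libitum cells.

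Nuggc was also seen in many plasma-like cells. They held 31 UMIs in 18 of 31 FMD cells, 61.7 CPM [41.9, 87.6], and 66 UMIs in 43 of 90 ad libitum cells, 52.4 CPM [40.5, 66.6], a log2 ratio of 0.24 [−0.43, 0.87]. Germinal centre B-like over plasma-like cells came to 2.40-fold [1.63, 3.64] in FMD and 2.28-fold [1.64, 3.18] in ad libitum. For Mef2b the same folds were 3.595 [2.59, 5.12] in FMD and 10.3 [7.13, 15.4] in ad libitum, and for S1pr2 11.3 [4.73, 35.4] in FMD and 10.6 [6.19, 19.2] in ad libitum. B-like cells, by contrast, held 0 UMIs in 2583 FMD cells and 3 UMIs in 2840 ad libitum cells, and follicular helper T-like cells 0 in both. The Nuggc level was at least 646-fold higher in germinal centre B-like than in B-like cells in FMD, and 552-fold [183, 2729] higher in ad libitum. Counting immunoglobulin UMIs, plasma-like cells were the deepest class, with medians of 39797 UMIs in FMD and 38033 UMIs in ad libitum. Without immunoglobulin and mitochondrial genes, they held 502612 UMIs in 31 FMD cells and 1260722 in 90 ad libitum cells. Germinal centre B-like cells held 1209443 in 73 FMD cells and 746492 in 50 ad libitum cells, so by that count plasma-like cells were not deeper per cell.

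**Figure D3:**
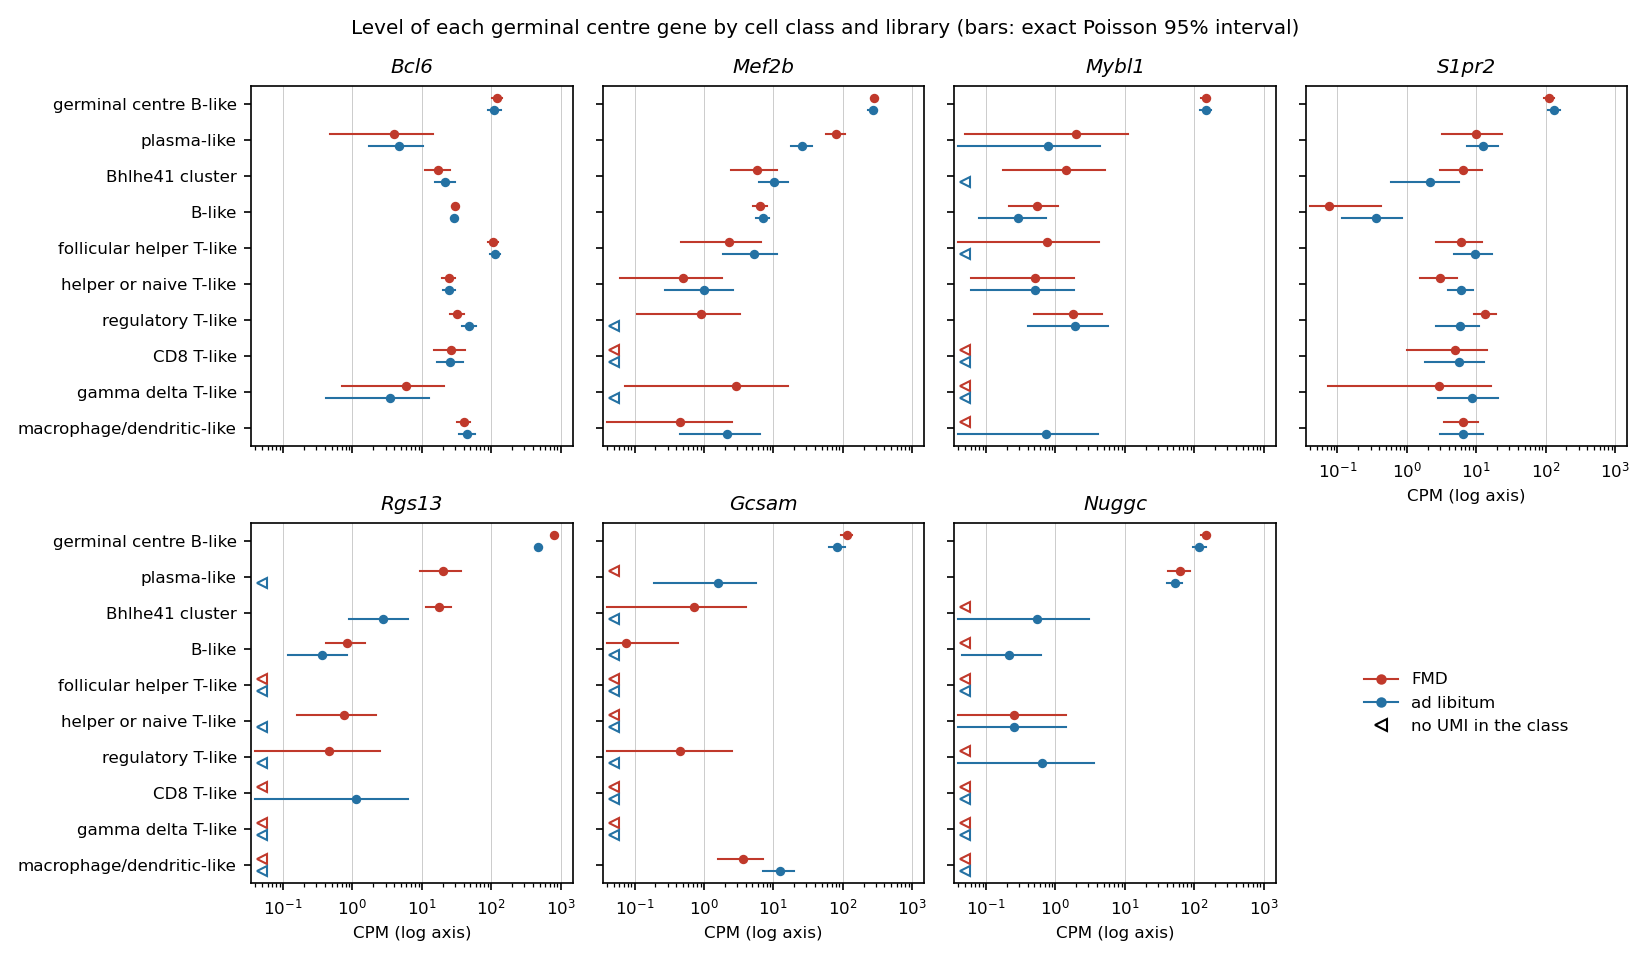
Level of each of the 7 genes (CPM, log axis) in each cell class, with an FMD and an ad libitum point and 95% counting intervals, cut at the lower edge of the axis, and open triangles for classes with no UMI. Germinal centre B-like cells are highest for 6 of the 7 genes in both libraries, Bcl6 overlaps there with follicular helper T-like cells, and Mef2b and Nuggc reach plasma-like cells.

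Set against all genes of the germinal centre B-like class, none of the 7 genes was at least 2-fold higher or at least 2-fold lower in FMD, against 2.29% and 2.03% of 7475 genes. By counting intervals, 2 of 7 (Rgs13 and Gcsam) had an interval above 0, against 4.94% of 7475 genes, and 0 of 7 had one below 0, against 5.73%. The median ratio of the 7 genes was 0.14 and that of all genes was 0.0, and 6 of 7 ratios were above 0, against 49.7% of all genes. Summed, the 7 genes stood at 1737 CPM [1664, 1813] in FMD and 1346 CPM [1264, 1432] in ad libitum, a log2 ratio of 0.37 [0.26, 0.48]. Rgs13 was the largest contributor to this sum, with 975 of 2101 UMIs in FMD and 359 of 1005 UMIs in ad libitum. Ratios of the other genes ran from −0.25 (S1pr2) to 0.46 (Gcsam), with Mybl1 at 0.01 and Mef2b at 0.08, so the summed ratio leans on Rgs13.

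**Figure D4:**
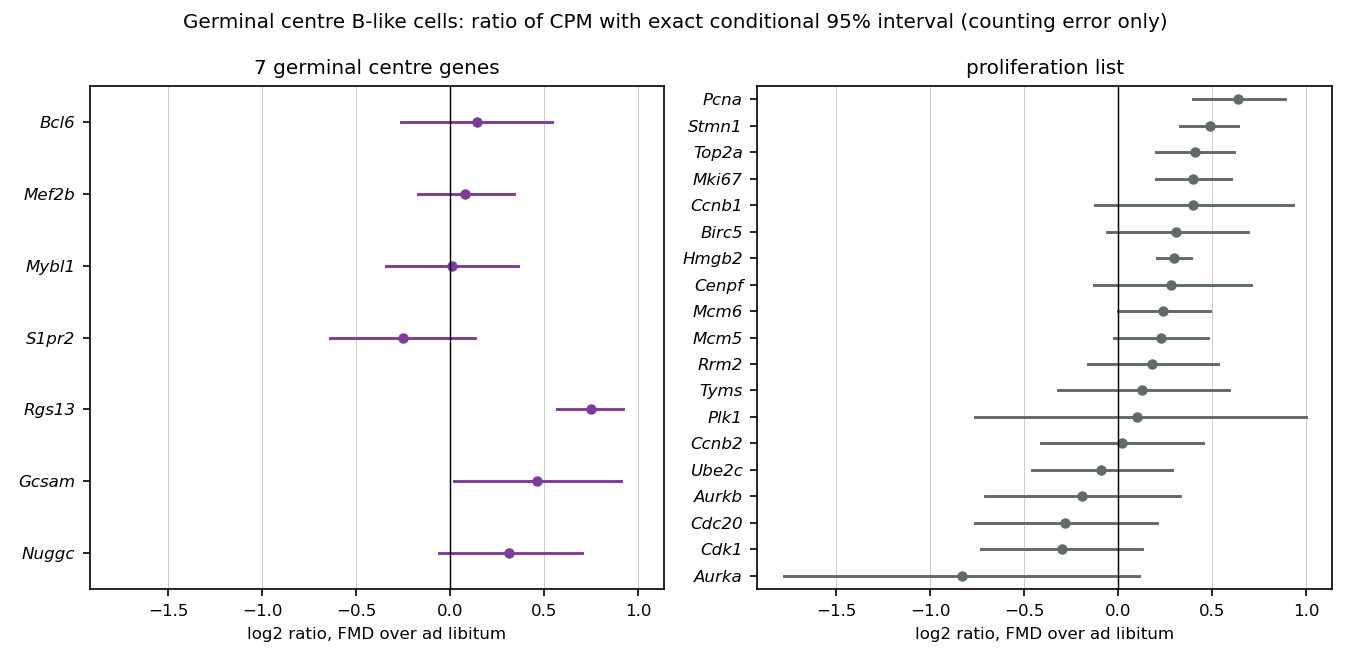
Log2 ratio of FMD over ad libitum in germinal centre B-like cells for the 7 genes (left) and the 19 genes of a proliferation list (right), with 95% counting intervals and a line at 0. Rgs13 at 0.75 [0.57, 0.92] stands clear of 0, and Gcsam at 0.46 [0.02, 0.91] has its lower bound near 0. The intervals of the other 5 hold 0. Of the 19 proliferation genes, 14 have a ratio above 0, and 6 have their whole interval above 0, against 49.7% and 4.94% of 7475 genes in the class.

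Over all kept cells, where the number of germinal centre B-like cells also enters, the ratios of all genes but Bcl6 were larger. That of Bcl6 was 0.03 [−0.10, 0.16]. Rgs13 stood at 35.4 CPM in FMD and 12.7 CPM in ad libitum, a log2 ratio of 1.47 [1.30, 1.65]. Gcsam, Mybl1, Mef2b and Nuggc had log2 ratios of 0.88 [0.48, 1.29], 0.60 [0.28, 0.93], 0.42 [0.22, 0.62] and 0.39 [0.09, 0.69], and those of S1pr2 and Bcl6 held 0. With the germinal centre B-like cells taken out, the 7 genes summed to 44.7 CPM in FMD and 46.6 CPM in ad libitum, a log2 ratio of −0.06 [−0.17, 0.05]. That sum was mostly Bcl6, with 881 of 1241 UMIs in FMD and 931 of 1323 UMIs in ad libitum. Of the 7 genes, Rgs13 had an interval above 0 in those cells, with 50 UMIs in FMD and 12 in ad libitum, a log2 ratio of 2.09 [1.16, 3.14] (of the FMD UMIs, 25 lay in 4 cells of the Bhlhe41-led cluster and 10 in 4 plasma-like cells). Nuggc had an interval below 0, with 32 UMIs in FMD and 73 in ad libitum, a log2 ratio of −1.16 [−1.80, −0.54], and most of these lay in plasma-like cells (31 UMIs in 31 FMD cells and 66 UMIs in 90 ad libitum cells). The intervals of the other 5 held 0. The share of all genes with an interval off 0 was not counted in all kept cells or in those outside the class. The calls in these cells thus have no background to be read against. In B-like cells alone the sum was 38.1 CPM in FMD and 37.6 CPM in ad libitum, a log2 ratio of 0.02 [−0.16, 0.20]. Neither of the members with at least 20 UMIs there, Bcl6 and Mef2b, had an interval off 0, against 9.79% of 10454 genes above 0 and 7.87% below.

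Most germinal centre B-like cells held several of the genes at once. At least 4 of the 7 were seen in 57 of 73 FMD cells (78.1%) and 37 of 50 ad libitum cells (74.0%), and all 7 in 22 FMD and 14 ad libitum cells. Only 1 FMD cell and 1 ad libitum cell of the class held none. In B-like cells, whose median depths were 5129 UMIs in FMD and 4968 in ad libitum, at least 2 of the 7 were seen in 12 FMD cells (0.465%) and 9 ad libitum cells (0.317%). The cells of the class were deeper than most, so shares of cells were also read after thinning. Thinned to 1000 UMIs, the share of germinal centre B-like cells with at least 2 of the genes was 37.0% in FMD and 30% in ad libitum. Mef2b was then seen in 28.8% of FMD and 26.0% of ad libitum cells of the class, and Bcl6 in 13.7% of FMD and 18.0% of ad libitum cells. The intervals of the 2 libraries overlapped for these and for the other 5 genes. In B-like cells at that depth, Mef2b was seen in 0.815% [0.505, 1.24] of FMD and 0.670% [0.404, 1.05] of ad libitum cells, and in T-like cells, where it serves as background, in 0.174% [0.0210, 0.625] of FMD and 0.0891% [0.00226, 0.496] of ad libitum cells. The thinned Mef2b share in B-like cells was above that of T-like cells, with intervals that overlapped. Over all UMIs, Mef2b in B-like cells stood at 6.50 CPM [5.19, 8.03] in FMD and 7.05 CPM [5.73, 8.6] in ad libitum. The T-like classes together stood lower, at 0.950 CPM in FMD (8 UMIs) and 1.23 CPM in ad libitum (10 UMIs).

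**Figure D5:**
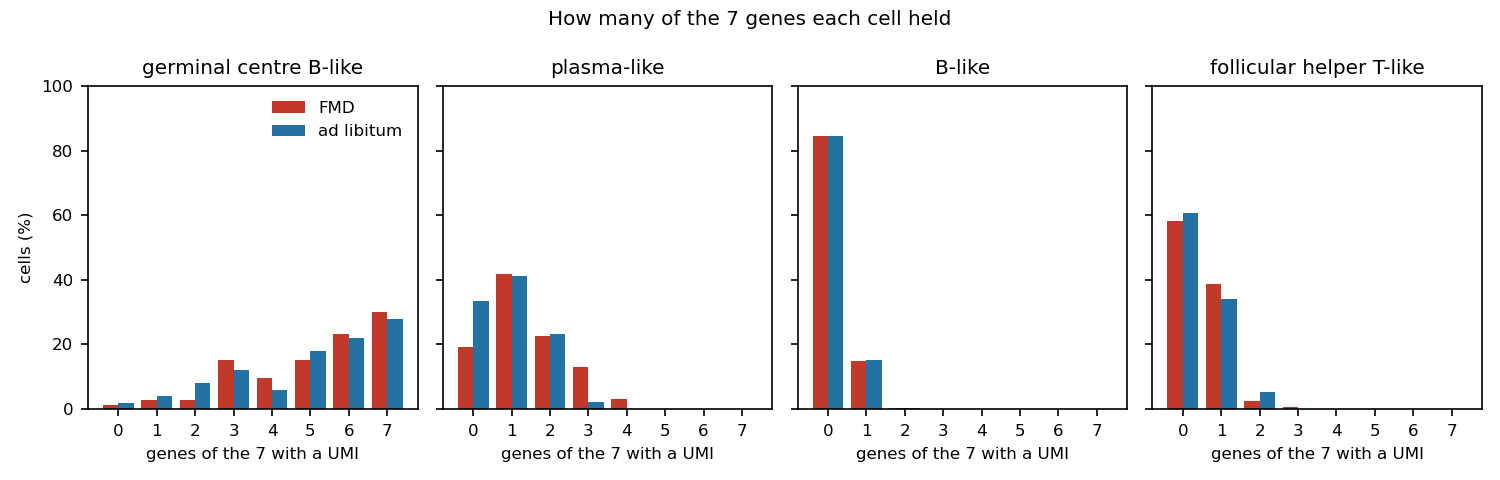
Share of cells (%) by how many of the 7 genes had a UMI, in germinal centre B-like, plasma-like, B-like and follicular helper T-like cells of both libraries. Germinal centre B-like cells peak at 7 genes (30.1% in FMD and 28.0% in ad libitum), while most B-like cells (84.6% in FMD and 84.4% in ad libitum) hold none.

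Genes that work with the 7 were read in germinal centre B-like cells from lists chosen for their roles. In these lists a gene is called above or below 0 where its whole interval was. Of all 7475 genes in the class, 4.94% were above 0 and 5.73% below. The other germinal centre genes were mostly level between the libraries, with 1 of 12 above 0, Ezh2, a histone methyltransferase (289 CPM in FMD, 213 CPM in ad libitum, log2 ratio 0.44 [0.16, 0.72]), and 1 below 0, Tnfrsf13c, the BAFF receptor (326 CPM in FMD, 405 CPM in ad libitum, −0.31 [−0.53, −0.09]). None of the 6 Bcl6 corepressors had an interval off 0 (median 0.05). Of 10 measured genes known to be repressed by Bcl6, Trp53 (0.36 [0.02, 0.70]) and Id2 (1.57 [0.62, 2.66]) were above 0 and Gpr183 (−0.89 [−1.67, −0.11]) below 0, with a median of −0.09, so the list had no common direction.

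The 3 other Mef2 genes had intervals that held 0, with Mef2c at 798 CPM in FMD and 845 CPM in ad libitum. Mybl2, a Myb family factor of dividing cells, stood at 69.5 CPM in FMD and 40.2 CPM in ad libitum (0.79 [0.17, 1.44]). Of 5 measured other Rgs genes, 2 had intervals below 0 (5.73% of all genes of the class did), Rgs1 at 323 CPM in FMD and 418 CPM in ad libitum (−0.37 [−0.59, −0.15]) and Rgs2 at 181 CPM in FMD and 275 CPM in ad libitum (−0.60 [−0.88, −0.32]), and none had one above 0 (4.94% of all genes did). Rgs1 and Rgs2 had intervals below 0 in B-like cells too, where 7.87% of genes did.

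Among the 11 measured genes of sphingosine 1-phosphate signalling and follicle positioning, none was above 0 and 2 were below 0, against 4.94% and 5.73% of all genes of the class. These were Klf2, a transcription factor of circulating lymphocytes, at 82.7 CPM in FMD and 186 CPM in ad libitum (−1.17 [−1.56, −0.79]), and Gpr183, a receptor that draws B cells to the outer follicle, at 23.2 CPM in FMD and 42.9 CPM in ad libitum. Gna13, the partner of S1pr2, stood at 451 CPM in FMD and 465 CPM in ad libitum. In the list of light zone and T cell help genes, 2 of 10 were below 0 (Nfkbia and Il4ra) and none above, and in the list of plasma cell exit genes, 1 of 5 was below 0, Xbp1, at 161 CPM in FMD and 301 CPM in ad libitum (−0.90 [−1.19, −0.62]).

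Of the 19 genes of the proliferation list, 14 had a ratio above 0, against 49.7% of all genes in the class, and the median was 0.23. The interval was above 0 for 6 (Mki67, Top2a, Stmn1, Pcna, Mcm6 and Hmgb2) and below 0 for none. Several of its genes also helped to define the cluster. Against these, 4.94% of all genes in the class were above 0 and 5.73% below. In follicular helper T-like cells, the list of their own genes had 1 of 10 above 0, the costimulator Icos (851 CPM in FMD, 723 CPM in ad libitum, 0.23 [0.10, 0.37]), and 1 below 0, the cytokine Il21 (27.6 CPM in FMD, 45.1 CPM in ad libitum, −0.71 [−1.36, −0.07]), where 5.65% of 7643 genes were above 0 and 3.98% below.

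Markers of other cell types were also summed in the germinal centre B-like class. Barcodes with the B panel and the T or myeloid panel had been removed as doublets, which bears on the T and macrophage sums. The 9 genes of the T list summed to 102 CPM in FMD and 95.1 CPM in ad libitum, with Cd8a at 0 in both, and the epithelial list of 5 genes to 3.31 CPM in FMD and 9.38 CPM in ad libitum. The 12 genes of the macrophage and dendritic list summed to 1375 CPM in FMD and 1506 CPM in ad libitum, nearly all from Apoe, with C1qa, C1qc, Cd209a and Adgre1 at 0 in both. The plasma list of 7 genes was the highest of these, summing to 1870 CPM in FMD and 2518 CPM in ad libitum, with 6 of its genes seen in FMD and 7 in ad libitum. The part of these in the member values was not tested.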

How the data were processed

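The deposited matrices hold counts, raw UMIs per gene and barcode with no normalization, in 1 library for each diet, per the file headers written by Cell Ranger 3.1.0. The submitters' processing notes name GRCm38, Seurat 2.3.4, CASAVA 1.8 and Cell Ranger 3.1.0 without a role, and settings of alignment and counting are not given in the sources used here. The lowest total per barcode was 500 UMIs.

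The 7 genes and all gene lists were chosen with earlier results of these data known. Barcodes were kept with at least 200 genes and at most 20% mitochondrial UMIs. Removed were 441 FMD and 475 ad libitum barcodes with fewer genes, 694 and 661 with a higher mitochondrial share, 3 and 0 with hemoglobin, and 154 and 108 taken as doublets, which held 2 lineage panels (B, T or myeloid) at 5 or more UMIs and 0.5 per 1000 UMIs each. Kept cells were clustered jointly, with no batch correction, in scanpy 1.11.5 (2000 variable genes, 30 components, 15 neighbours, Leiden resolution 1, leidenalg 0.10.2). Neither the variable genes nor the markers that named the clusters held any of the 7 genes, and classes rebuilt in this way may differ from the authors'. The germinal centre B-like class was limited to cells with the B panel after its cluster had been seen to hold T cells and shallow barcodes. UMIs were summed per class and library. Intervals are exact Poisson for levels, exact conditional binomial for ratios and exact binomial (Clopper-Pearson) for shares, at 95%, and the scripts were tested on simulated data.

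All 7 genes were named in every class of interest, and of the other lists (1 list and 1 gene are not reported here), genes with at least 20 UMIs in the class were read by whether the ratio interval lay off 0. Where the gene list repeated a symbol (62 symbols), its first line was read. Gene positions are from GENCODE vM21 on GRCm38, and promoters from RefSeq on GRCm38.p6, in which Mybl1 and Nuggc had no entry. UMIs of overlapping genes cannot always be told apart, and Bcl6 overlaps the short gene Gm37419 on the other strand.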

Additional observations from a re-analysis of the deposited data

Results flagged for a closer look

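Barcodes that the filters removed also held the 7 genes. At least 4 of the 7 were seen in 8 removed FMD barcodes and 6 removed ad libitum barcodes, out of 67 FMD and 44 ad libitum barcodes with that many in all. Of the removed ones, 6 in FMD and 4 in ad libitum carried the panels of 2 lineages, and 2 in FMD and 2 in ad libitum had too high a mitochondrial share. Elsewhere, at least 4 of the genes were seen in 57 FMD and 37 ad libitum germinal centre B-like cells, in 1 FMD and 1 ad libitum cell of the cluster led by Bhlhe41 and Apoe, and in 1 FMD plasma-like cell. No such barcode was found in B-like or T-like classes of either library. The removed barcodes enter none of the comparisons above, except where doublets were kept as an alternative.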

How the results depend on the processing

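No paired analysis was possible because each diet had 1 library. Of 159 values recomputed for 14 results, 149 moved by less than the main counting interval, 9 moved by more and 1 reversed. Some ratios whose main interval held 0 changed sign without being counted as reversed. In germinal centre B-like cells these included Bcl6 (−0.26 to 0.43) and Mybl1 (−0.19 to 0.23). The number of genes with a ratio above 0 there, also among the results, has no interval and ran from 4 to 6. The largest shifts came from thinning each cell to 1000 UMIs, which left few UMIs of most genes. There the summed log2 ratio was 0.26 [0.02, 0.50] in all kept cells (main value 0.53 [0.45, 0.61]). It was 0.43 [−3.03, 3.24] in plasma-like cells (main value 0.85 [0.44, 1.25]) and 0.38 [−0.03, 0.78] in B-like cells (main value 0.02). In germinal centre B-like cells it was 0.08 [−0.36, 0.53] (main value 0.37). Also there, in germinal centre B-like cells, Gcsam reversed to −1.55, and S1pr2 was −1.55, Bcl6 −0.26, Nuggc 0.77 and Rgs13 0.48. At 5000 UMIs per cell the sum in germinal centre B-like cells was 0.37, and with the whole cluster it was 0.52. That whole cluster, the thinning to 5000 UMIs and the clustering without 29 defining genes were chosen after seeing the data. The ratio of shares stayed above 0 with its interval in 7 of 8 alternatives. All 7 kept the limit to cells with the B panel, which was chosen after the cluster had been seen. The exception was the whole cluster, without that limit, at 0.27 [−0.21, 0.76]. The interval of Rgs13 was above 0 in 11 of 12 alternatives and that of Gcsam in 5 of 12, while Nuggc passed in 1 and Bcl6, Mef2b, Mybl1 and S1pr2 in none. Without the top cell of each gene, the plasma-like sum was 0.58 [0.11, 1.04]. At Leiden resolution 0.5 no follicular helper class formed, so Bcl6 has no value there, and in the other alternatives its ratio in that class was between −0.17 and 0.15. Counting limits bear most on plasma-like cells, 31 in FMD, and on genes with few UMIs.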

Other observations

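The germinal centre B-like cells of both libraries were also pooled to read the 7 genes by cell division. The 123 cells were split at the median of their summed proliferation genes (4.19 per 1000 UMIs), with 25 cells within 0.5 on the log2 scale of that value. The 61 cells above it (44 FMD, 17 ad libitum) had a median of 19421 UMIs and the 62 below it (29 FMD, 33 ad libitum) a median of 13002 UMIs. The pooled ratios thus also hold differences between the libraries. How many of all genes had an interval off 0 by this split was not counted. Mybl1 stood at 172 CPM above and 114 CPM below the median, a log2 ratio of 0.59 [0.22, 0.96], and Nuggc at 164 CPM above and 99.6 CPM below, 0.72 [0.33, 1.11]. Both differences were seen in ad libitum cells (1.15 [0.58, 1.74] for Mybl1 and 1.26 [0.62, 1.92] for Nuggc), while the FMD intervals held 0 (0.21 [−0.27, 0.72] and 0.30 [−0.19, 0.81]), and the difference between libraries was not tested. Pooled, Gcsam had a ratio of 0.44 [0.0, 0.88] and Bcl6 of −0.30 [−0.69, 0.08]. Within FMD cells Bcl6 stood at 107 CPM above and 158 CPM below (−0.56 [−1.05, −0.06]), and within ad libitum cells at 109.7 CPM above and 112 CPM below (−0.03 [−0.71, 0.63]). The Rgs13 intervals held 0 within each library (−0.17 [−0.37, 0.02] in FMD and 0.06 [−0.26, 0.37] in ad libitum). Cd86, a light zone gene, had ratios of −0.81 [−1.21, −0.40] in FMD and −0.49 [−1.01, 0.02] in ad libitum, and Cxcr4, a dark zone receptor, of 0.33 [0.02, 0.64] in FMD and 0.25 [−0.11, 0.60] in ad libitum.

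Across 28 pairs of class and library with at least 20 cells, which share libraries and differ in depth, the levels of the 7 genes on a log2 scale of CPM + 1 went together to unequal degrees. Pearson's r was highest for Mef2b with Nuggc (0.86), Rgs13 with Gcsam (0.788) and Mef2b with Rgs13 (0.786), and lowest for Bcl6 with Nuggc (0.036) and with Mef2b (0.161). Of 10614 other genes, those most like the sum of the 7 were Ccna2 (0.872), Rad51ap1 (0.84), Cep55 (0.84), Cdkn3 (0.838) and Cdca5 (0.833). The gene most like each member was Asap1 for Bcl6 (0.868), Hist1h1b for Mef2b (0.893), Rassf6 for Mybl1 (0.851), Mki67 for S1pr2 (0.877), Gm40634 for Rgs13 (0.933), Sgo1 for Gcsam (0.925) and Endou for Nuggc (0.934).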
